A study of Mus musculus with 12 samples.

Results

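The mitochondrial genome of the mouse is transcribed apart from the nuclear chromosomes, and its 37 genes were followed here as RNA in hematopoietic stem and progenitor cells. All genes whose name starts with mt- in the expression table were taken, and these were 13 mRNA genes, 2 rRNA genes and 22 tRNA genes among 53465 listed genes. The cells were LSKs (Lin- Sca-1+ c-Kit+ cells), the bone marrow fraction that holds the hematopoietic stem cells and multipotent progenitors, sorted by flow cytometry after depletion of lineage-positive cells. Tespa1+/+ (WT) and Tespa1-/- (KO) male littermates aged 8 to 10 weeks were used. The KO mice carried a Tespa1 deletion in the whole body, came from 1 line (B6.129S-Tespa1 tm1Smoc) and had been backcrossed to C57BL/6 for more than 6 generations. LSKs were taken either from untreated mice or on day 9 after a single intraperitoneal injection of 5-fluorouracil (5-FU), a drug that kills cycling blood cells. This gave 4 groups of 3 libraries each, WT, KO, WT after 5-FU and KO after 5-FU, and 12 libraries in all. Whether each library came from 1 mouse or from pooled mice was not given, so p-values measure the spread between these libraries.

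Mitochondrial DNA is copied and read in many copies per cell. Both strands are transcribed from the control region into long precursors, which are cut at the tRNA genes into single rRNAs, tRNAs and mRNAs. The protein products are all core subunits of the respiratory chain and ATP synthase, which work together with many subunits made from nuclear genes. Hematopoietic stem cells are known for relying little on respiration while quiescent and for raising it when they enter cycle and differentiate.

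The gene sequences show how compact this genome is. The heavy strand was the template of 28 genes, and the light strand was the template of 9 genes, namely mt-Nd6 and 8 tRNA genes (mt-Tq, mt-Ta, mt-Tn, mt-Tc, mt-Ty, mt-Ts1, mt-Te and mt-Tp). The mRNA genes mt-Co3, mt-Nd4 and mt-Cytb end within their stop codon, and the missing A bases are added only with the poly-A tail of the mRNA. The last 21 bases of these genes are shown for comparison with mt-Co1 and mt-Nd6, which encode a whole stop codon, and capitals mark the encoded bases of the stop codon (GRCm38, sense strand).
mt-Co3: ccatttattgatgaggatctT
mt-Nd4: taattacaggcctgacaataT
mt-Cytb: aaatactaaaattatatccaT
mt-Co1: acctatgtaaaagtaaaaTAA
mt-Nd6: atcgagattactcgagatTAA

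Neighbouring genes also share bases, which bears on how reads can be assigned. mt-Atp8 and mt-Atp6 overlap on the same strand by 43 bases, MT:7927-7969, and lie on 1 common mRNA. mt-Nd4l and mt-Nd4 likewise overlap by 7 bases, MT:10167-10173. mt-Nd5 and mt-Nd6 overlap by 14 bases at MT:13552-13565 on opposite strands, so that reads there can be told apart only by strand. The library kit kept strand, but whether strand was used in counting was not stated. Both overlaps are printed with 20 bases on either side and with the shared bases in capitals.
mt-Atp8 and mt-Atp6: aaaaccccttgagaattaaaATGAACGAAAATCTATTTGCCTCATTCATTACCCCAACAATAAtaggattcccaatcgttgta
mt-Nd5 and mt-Nd6: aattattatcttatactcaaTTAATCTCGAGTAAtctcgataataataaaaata

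The base composition of mt-Nd6 sets its mRNA apart from the other 12. Its sense strand held 28.1% G and 6.0% C, against 5.9 to 16.1% G and 22.1 to 30.0% C in the other mRNA genes. All 37 genes had the same positions in the table and in the GENCODE M21 annotation of GRCm38.

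The libraries held 22118154 to 28275079 counts. Tespa1 itself had 43.1 to 49.9 CPM (counts scaled to library depth) in WT and 34.6 to 35.0 in KO, and 47.2 to 57.5 in WT after 5-FU and 17.3 to 20.9 in KO after 5-FU. Which exons the deletion removes was not given, so these counts check the labels only in part. The 10 LSK markers were detected in all libraries, with a summed level of 1686 to 1775 CPM in WT, 1405 to 1473 in KO, 1488 to 1560 in WT after 5-FU and 876 to 963 in KO after 5-FU. WT replicate 1 had the lowest mitochondrial mRNA share of its group, as given below, and results that rest on it are given without it. RNA was selected with poly-T beads, yet RNAs that carry no poly-A tail were present in all libraries. The 13 listed small nuclear-encoded and rRNA-linked RNAs took 9.80 to 9.94% of counts in WT, 12.7 to 13.2% in KO, 11.1 to 11.5% in WT after 5-FU and 12.99 to 13.51% in KO after 5-FU, and their part in the results was not tested.

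Mitochondrial mRNA made up less of the RNA after 5-FU and less in KO than in WT LSKs. The 13 mRNA genes took 1.11, 1.23 and 1.25% of all counts in the 3 WT libraries, 0.984, 0.999 and 1.001% in KO, 0.965, 0.992 and 0.980% in WT after 5-FU and 0.835, 0.787 and 0.833% in KO after 5-FU. WT was highest, KO and WT after 5-FU lay close together, and KO after 5-FU was lowest, and the groups did not overlap in any of the 4 comparisons of treatment or genotype.

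The mean mRNA share after 5-FU was 0.818 times that of untreated cells in WT and 0.823 times in KO. In KO it was 0.831 times that of WT without treatment and 0.836 times after 5-FU. Each of these 4 differences had the smallest two-sided exact permutation p that 3 against 3 libraries can give (p = 0.1, adjusted 0.133 over 24 tests of shares). With the 12 libraries in 1 test, 5-FU lowered the share by 0.197 percentage points within genotype and the knockout lowered it by 0.182 percentage points within treatment (stratified exact permutation test, two-sided p = 0.005 each, the smallest possible, adjusted p = 0.04). The 4 comparisons share libraries pairwise and are not independent of each other. In bulk RNA, fewer cells rich in mitochondrial RNA and less of this RNA per cell cannot be told apart.

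The rRNA genes, which hold most of the mitochondrial counts, and all mitochondrial genes together did not pass the threshold. The rRNA share was 8.30, 9.01 and 8.99% in WT, 8.44, 8.46 and 8.50% in KO, 8.52, 8.67 and 8.49% in WT after 5-FU and 7.85, 7.36 and 7.88% in KO after 5-FU. All mitochondrial genes took 9.42 to 10.24% of counts in WT, 9.42 to 9.50% in KO, 9.47 to 9.66% in WT after 5-FU and 8.15 to 8.71% in KO after 5-FU. In both measures KO after 5-FU lay below the groups it was compared with, whereas WT overlapped WT after 5-FU and untreated KO (exact permutation p = 0.4 for each). Over the 12 libraries the stratified exact permutation p was 0.02 for 5-FU and for genotype, with an adjusted p of 0.06.

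The share of a library depends on what else it holds, so the mRNA was also set against nuclear genes. Mitochondrial mRNA counts equalled 1.55 to 1.75% of the nuclear protein-coding counts in WT, 1.43 to 1.46% in KO, 1.37 to 1.41% in WT after 5-FU and 1.12 to 1.19% in KO after 5-FU. These ranges again did not overlap between any groups compared, and the stratified exact permutation p was 0.005 for 5-FU and for genotype.

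**Figure D1:**
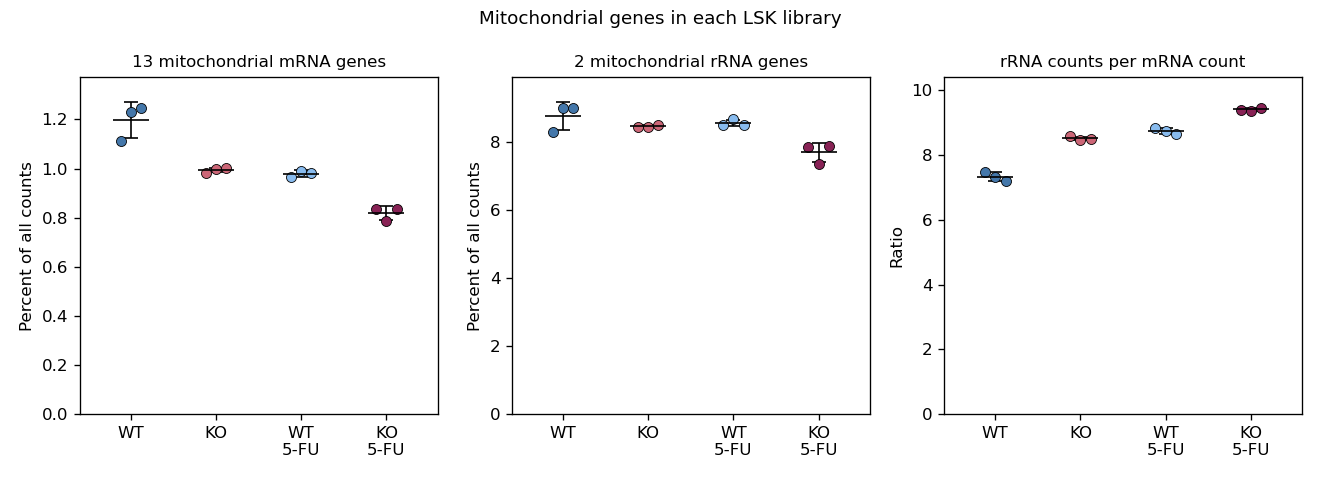
Mitochondrial RNA in each LSK library, with the percent of all counts on the 13 mRNA genes (left), the percent on the 2 rRNA genes (middle) and the ratio of rRNA to mRNA counts (right); points are libraries in replicate order, long bars the mean and short bars the SD (n = 3). The mRNA share runs from a mean of 1.20% in WT to 0.818% in KO after 5-FU, while the ratio runs the other way, from 7.21 to 7.47 in WT up to 9.36 to 9.46 in KO after 5-FU.

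Most single mRNA genes followed the share. For each gene, the counts of the 6 libraries compared were tested by edgeR (quasi-likelihood F-test), and a gene was called at a Benjamini-Hochberg adjusted p under 0.05 over all genes tested. After 5-FU, 11 of 13 mRNA genes fell in WT, the median of the 13 log2 fold changes being -0.41, where 4.18% of all 17002 genes tested were called lower and 3.77% higher. In KO, 12 of 13 fell after 5-FU (median -0.35), where 8.64% of 17228 genes were called lower and 10.7% higher. In untreated KO against WT LSKs, 8 of 13 were lower (median -0.30), with 3.59% of 17055 genes called lower and 1.64% higher. After 5-FU, 8 of 13 were lower in KO than in WT (median -0.21), with 5.78% of 17239 genes called lower and 7.34% higher. No mitochondrial gene was called higher in any comparison, and the median over all genes tested lay between -0.01 and 0.01.

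The untreated genotype calls depended on single libraries. Without WT replicate 1, 12 mitochondrial genes were called lower, with mt-Co2, mt-Co3, mt-Rnr1 and mt-Rnr2 added, and without WT replicate 2 or 3 there were 4 or 6. Without KO replicate 1, 2 or 3 there were 3, 3 or 4. mt-Nd2, mt-Nd5 and mt-Atp6 were called in all 6 of these fits. The median log2 fold change of the 13 mRNA genes stayed at -0.37 to -0.25 in these 6 fits, with 11 or 12 of 13 at an unadjusted p under 0.05. For 5-FU in KO, the same 14 genes were called whichever library was left out.

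**Figure D2:**
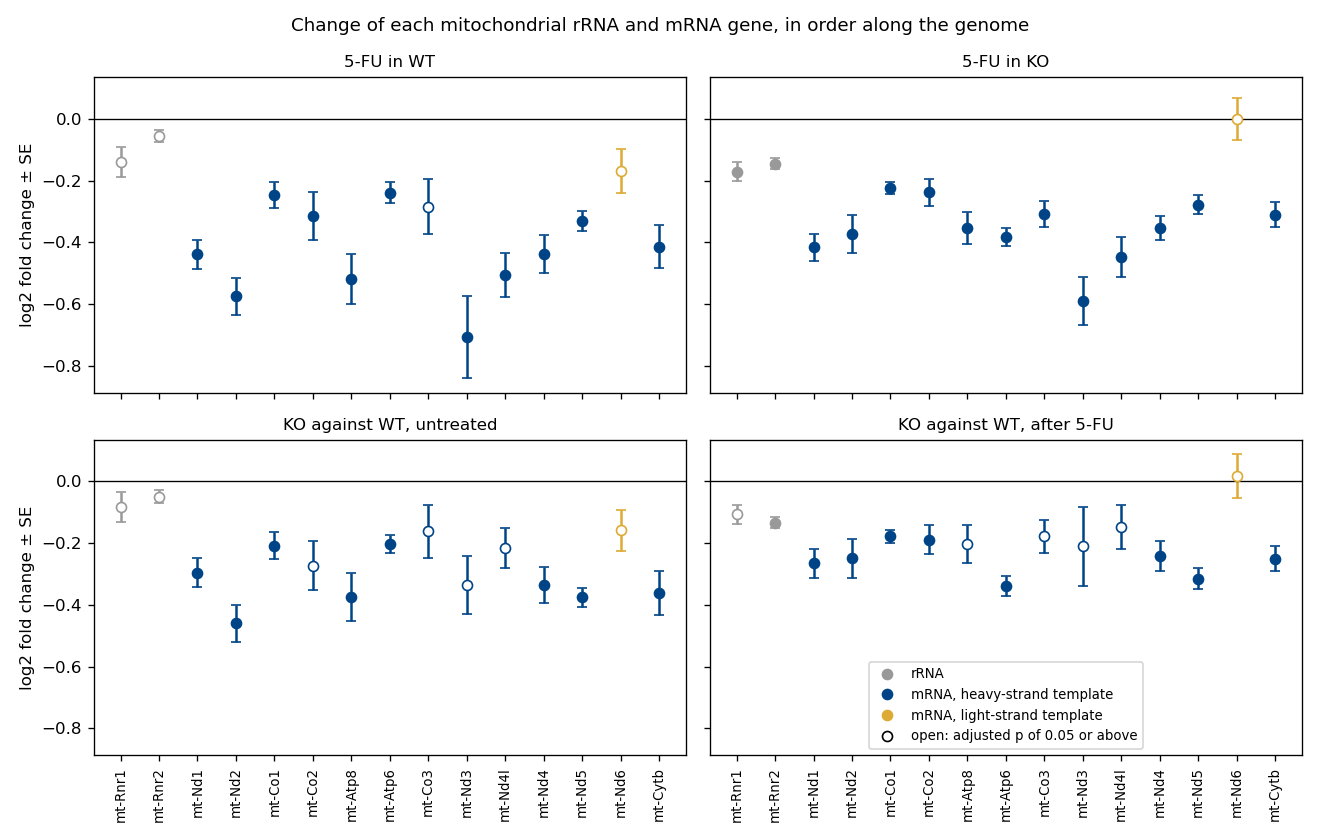
Log2 fold change with its standard error for the 2 rRNA and 13 mRNA genes in the order of the genome, in the 4 comparisons, with 3 libraries per group; filled points have an adjusted p below 0.05. Nearly all points lie below 0, the rRNA genes nearest to it, and mt-Nd6 at -0.00 and 0.02 in the comparisons that involve KO after 5-FU.

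Complex I, the NADH dehydrogenase that takes electrons from NADH, has 7 subunits encoded in mitochondria. mt-Nd5, a proton-pumping subunit, had 1348, 1429 and 1426 CPM in WT, 1064, 1083 and 1090 in KO, 1113, 1127 and 1098 in WT after 5-FU and 920, 871 and 899 in KO after 5-FU. The 4 groups did not overlap in any comparison, and within-group spread was small. It was lower after 5-FU by a log2 fold change of -0.33 ± 0.03 (SE, adjusted p = 0.000482) in WT and -0.28 ± 0.03 (adjusted p = 0.000334) in KO. KO was lower than WT by -0.38 ± 0.03 (adjusted p = 0.000431) without treatment and -0.31 ± 0.03 (adjusted p = 0.000312) after 5-FU.

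mt-Nd1, the subunit by the site where quinone binds, had 938, 1047 and 986 CPM in WT, 780, 802 and 837 in KO, 704, 732 and 753 in WT after 5-FU and 612, 578 and 635 in KO after 5-FU. It too was lower in all 4 comparisons. The log2 fold changes for 5-FU were -0.44 ± 0.05 in WT (adjusted p = 0.000684) and -0.42 ± 0.04 in KO (adjusted p = 0.0003). Those for KO were -0.30 ± 0.05 in untreated LSKs (adjusted p = 0.00994) and -0.27 ± 0.05 after 5-FU (adjusted p = 0.0052).

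mt-Nd2, another pumping subunit, had 452, 480 and 521 CPM in WT, 339, 351 and 366 in KO, 313, 327 and 334 in WT after 5-FU and 284, 250 and 287 in KO after 5-FU. Among the mRNA genes it held the lowest log2 fold change of KO against WT in untreated LSKs, -0.46 ± 0.06 (adjusted p = 0.00351), and after 5-FU this difference was -0.25 ± 0.06 (adjusted p = 0.0297). The latter call was lost without any of the WT libraries after 5-FU and without replicate 1 or 2 of KO after 5-FU. 5-FU lowered mt-Nd2 by -0.58 ± 0.06 in WT (adjusted p = 0.000549) and -0.37 ± 0.06 in KO (adjusted p = 0.00302). mt-Nd4, the remaining large pumping subunit, fell by 0.44 and 0.35 on the log2 scale after 5-FU in WT and KO, and was lower in KO by -0.33 and -0.24 without and with treatment, all 4 called.

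The short genes mt-Nd3 and mt-Nd4l fell after 5-FU in both genotypes and were not called between genotypes by edgeR, whereas DESeq2 called both lower in untreated KO. mt-Nd3 had 52.3, 54.2 and 64.5 CPM in WT, 44.6, 45.3 and 45.6 in KO, 29.7, 35.4 and 39.6 in WT after 5-FU and 28.9, 30.9 and 30.8 in KO after 5-FU. It fell after 5-FU by 0.71 on the log2 scale in WT (SE 0.13, adjusted p = 0.0121), a call lost without replicate 2 of WT after 5-FU, and by 0.59 in KO (SE 0.08, adjusted p = 0.00107). Between genotypes the values were -0.33 ± 0.09 (adjusted p = 0.0932) and -0.21 ± 0.13 (adjusted p = 0.343). mt-Nd4l fell by 0.51 and 0.45 on the log2 scale after 5-FU, and the genotype values were -0.22 ± 0.06 (adjusted p = 0.109) without treatment and -0.15 ± 0.07 (adjusted p = 0.229) after 5-FU.

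mt-Nd6 was the only mRNA gene that was not called in any comparison. This subunit of complex I is the only protein read from the light-strand template. It had 119, 130 and 118 CPM in WT, 114, 104 and 111 in KO, 111, 105 and 110 in WT after 5-FU and 119, 104 and 108 in KO after 5-FU, so that the ranges of KO, WT after 5-FU and KO after 5-FU overlapped, and WT lay above KO and WT after 5-FU but overlapped KO after 5-FU. It was not called in any comparison. Its log2 fold changes were -0.17 ± 0.07 (adjusted p = 0.206) and -0.00 ± 0.07 (adjusted p = 0.997) for 5-FU in WT and KO, and -0.16 ± 0.07 (adjusted p = 0.247) and 0.02 ± 0.07 (adjusted p = 0.913) for KO against WT without and with 5-FU.

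Complex III is represented by mt-Cytb, which carries electrons through the membrane from quinol toward cytochrome c. Its levels were 1265, 1482 and 1579 CPM in WT, 1098, 1143 and 1124 in KO, 1077, 1068 and 1099 in WT after 5-FU and 946, 857 and 932 in KO after 5-FU. WT replicate 1 was below the other WT libraries, and no groups compared overlapped. mt-Cytb fell after 5-FU by 0.41 (SE 0.07, adjusted p = 0.00675) in WT and 0.31 (SE 0.04, adjusted p = 0.000962) in KO on the log2 scale. It was lower in KO by -0.36 ± 0.07 (adjusted p = 0.024) without and -0.25 ± 0.04 (adjusted p = 0.00411) with treatment.

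Complex IV, cytochrome c oxidase, passes the electrons to oxygen and has mt-Co1, mt-Co2 and mt-Co3 as its core. mt-Co1, which holds the oxygen-reducing centre, had 3104, 3455 and 3550 CPM in WT, 2888, 2938 and 2920 in KO, 2846, 2826 and 2842 in WT after 5-FU and 2575, 2477 and 2496 in KO after 5-FU. All 4 of its comparisons were called, with log2 fold changes of -0.25 ± 0.04 (adjusted p = 0.00871) and -0.22 ± 0.02 (adjusted p = 0.000107) for 5-FU in WT and KO. The values for KO were -0.21 ± 0.04 (adjusted p = 0.0331) in untreated LSKs and -0.18 ± 0.02 (adjusted p = 0.000725) after 5-FU.

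The other subunits of complex IV were called less firmly. mt-Co2, which takes electrons from cytochrome c, had 739, 915 and 934 CPM in WT and 714, 708 and 720 in KO, and it was not called between these groups (-0.27 ± 0.08, adjusted p = 0.102), but was called by DESeq2 and without WT replicate 1. It was called lower after 5-FU, by -0.32 in WT and -0.24 in KO, and in KO against WT after 5-FU, by -0.19, although the first of these calls was lost without any library but WT replicate 1 and the last without 5 of the 6 libraries, KO after 5-FU replicate 1 being the exception. mt-Co3 was called for 5-FU in KO, with -0.31 ± 0.04 (adjusted p = 0.00139), and had -0.28 ± 0.09 (adjusted p = 0.0939) in WT, where it was called by DESeq2, in the fit of all 12 libraries and without WT replicate 1. For KO against WT it missed the threshold with all libraries and TMM, but it was called in untreated LSKs without WT replicate 1, and after 5-FU by DESeq2, with library totals without TMM and with at least 10 counts in each library.

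Complex V, the ATP synthase, has mt-Atp6, part of its proton channel, and mt-Atp8, a small subunit of its stalk region, both read from the shared mRNA printed above. mt-Atp6 had 1317, 1268 and 1248 CPM in WT, 1109, 1116 and 1103 in KO, 1067, 1097 and 1082 in WT after 5-FU and 845, 847 and 878 in KO after 5-FU. KO after 5-FU stood well below the other groups. The log2 fold changes were -0.24 ± 0.03 (adjusted p = 0.00249) and -0.38 ± 0.03 (adjusted p = 3.63e-05) for 5-FU in WT and KO, and -0.20 ± 0.03 (adjusted p = 0.00637) and -0.34 ± 0.03 (adjusted p = 0.00018) for KO without and with treatment. mt-Atp8 was called in the first 3 comparisons, with -0.52, -0.35 and -0.37, and after 5-FU its genotype value was -0.20 ± 0.06 (adjusted p = 0.0582), which was called by DESeq2, with library totals without TMM and with at least 10 counts in each library.

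None of the 13 mRNA, 2 rRNA and 12 tested tRNA genes was called for the interaction of genotype and 5-FU over the 12 libraries, where 3.02% of 18696 genes were called higher and 1.99% lower. At an unadjusted p under 0.05 were 2 mRNA genes (mt-Nd2 and mt-Atp6) and mt-Rnr2, and DESeq2 called 0. The median interaction of the 13 mRNA genes was 0.09. Without WT replicate 1 it was 0.16 and 8 of 13 had an unadjusted p under 0.05, while without any other library it was 0.05 to 0.11 with 1 or 2 such genes. For mt-Atp6 the interaction was -0.13 ± 0.04 (adjusted p = 0.0827), a larger fall with 5-FU in KO than in WT, and it was called without WT replicate 1 and without replicate 3 of KO after 5-FU. For mt-Atp8, which lies on the same mRNA, it had the opposite sign (0.18 ± 0.10, adjusted p = 0.404). For mt-Nd2 the interaction was 0.21 ± 0.09 (adjusted p = 0.207).

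Levels between genes were compared by the deposited FPKM (fragments scaled by gene length and library depth). In WT LSKs the order was mt-Co1 (2151 ± 142, SD, n = 3), mt-Atp8 (2043 ± 219), mt-Atp6 (1851 ± 58.7), mt-Co2 (1244 ± 151), mt-Cytb (1243 ± 134), mt-Nd1 (1020 ± 54.5), mt-Co3 (815 ± 108), mt-Nd4l (777 ± 63.5), mt-Nd5 (757 ± 22.1), mt-Nd4 (592 ± 45.5), mt-Nd2 (460 ± 31.1), mt-Nd6 (232 ± 11.8) and mt-Nd3 (162 ± 18.1). The WT ranges of mt-Co1 and mt-Atp8, mt-Atp8 and mt-Atp6, mt-Co2 and mt-Cytb, mt-Co3 and mt-Nd4l, and mt-Nd4l and mt-Nd5 overlapped, so the order of these neighbours is not set by the spread over WT libraries alone. Within libraries, the named order of these 5 pairs held in 12, 5, 10, 11 and 6 of 12 libraries, and that of the remaining pairs, whose WT ranges were apart, held in all 12. All of these genes but mt-Nd6 are read from the heavy-strand template, so unequal FPKM was found among mRNAs cut from the same precursor. These values leave out reads assigned to nuclear copies of the genes, which are described below. In WT such copies held 18.7 to 19.4% as many counts as mt-Atp6 and 15.2 to 19.0% as many as mt-Nd4l. For mt-Co2 it was 10.6 to 11.8% (Gm28661) and for mt-Co3 10.0 to 12.3%. The order with these reads added was not computed.

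**Figure D3:**
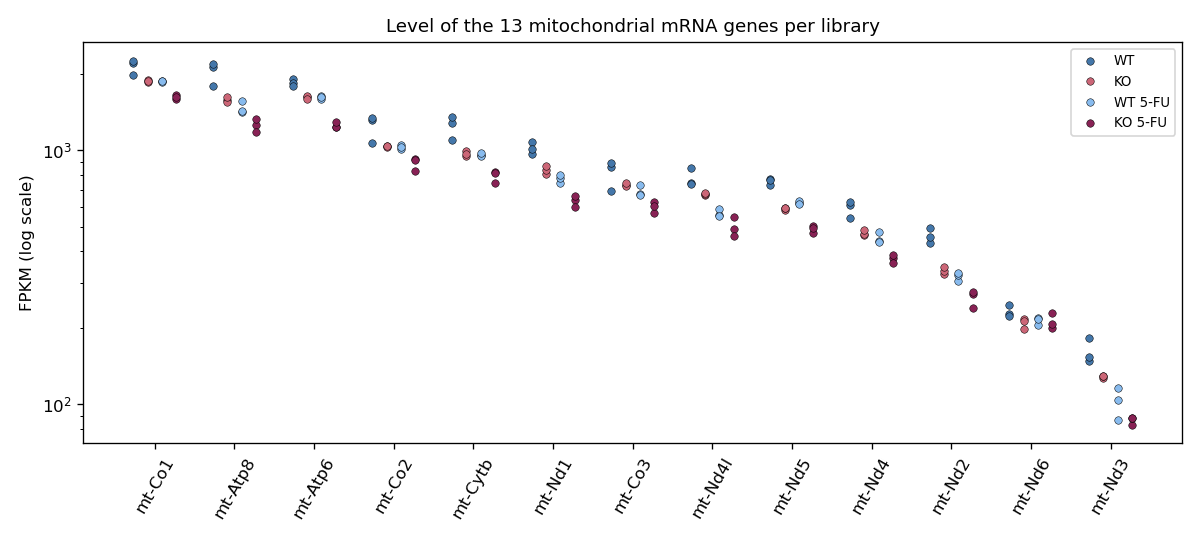
FPKM (log scale) of the 13 mitochondrial mRNA genes in all 12 libraries, with genes in the order of their mean in WT and colours for the 4 groups. For most genes the dots step down from WT to KO after 5-FU, whereas those of mt-Nd6 lie at 224 to 246 FPKM in WT and 199 to 228 in the other groups.

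Since most mRNAs fell by unequal amounts, the make-up of the mitochondrial mRNA pool was different between groups. Complex I genes took 34.6, 34.0 and 33.2% of mitochondrial mRNA counts in WT, 32.2, 32.3 and 32.9% in KO, 31.9, 32.4 and 32.1% in WT after 5-FU and 31.4, 31.2 and 31.9% in KO after 5-FU. Complex IV genes took 39.1, 40.5 and 40.9%, then 42.2, 42.1 and 41.8%, then 42.6, 42.1 and 42.2%, and 44.2, 44.2 and 43.1%, in the same order of groups. Complex IV was thus lowest in WT and highest in KO after 5-FU, and complex I the reverse.

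Over the 12 libraries, 5-FU raised the complex IV share by 1.96 percentage points and the knockout raised it by 1.70 (stratified exact permutation test, p = 0.005 and adjusted p = 0.04 over 24 tests for each). Most of this lay in mt-Co1, whose share was higher by 1.67 points for 5-FU and 1.24 for genotype. For mt-Co2 the differences were 0.210 and 0.125 (exact permutation p = 0.165 and 0.395). For mt-Co3 they were 0.084 and 0.332 (exact permutation p = 0.63 and 0.025). The complex I share was lower after 5-FU by 1.38 percentage points (a difference of -1.38, exact permutation p = 0.005, adjusted p = 0.04), and its genotype difference of -1.05 missed the threshold (exact permutation p = 0.01, adjusted p = 0.06). The shares of complex III and complex V missed the threshold for both factors, with adjusted exact permutation p of 0.171 or more.

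For single genes the shares of mitochondrial mRNA gave no difference past the threshold over 78 exact permutation tests, with a smallest adjusted p of 0.065. Those that compared 3 with 3 libraries could not go below an exact permutation p of 0.1. When the 26 exact permutation tests on 12 libraries were adjusted together, a choice made after seeing the data, 8 genes passed for 5-FU (mt-Nd1, mt-Nd2, mt-Nd3, mt-Nd4, mt-Nd4l, mt-Nd6, mt-Co1 and mt-Atp8) and 3 for genotype (mt-Co1, mt-Nd5 and mt-Nd6). At an unadjusted p under 0.05 were 8 genes for 5-FU and 5 for genotype. mt-Co1 took 27.6, 27.6 and 28.0% in WT, 29.2, 29.3 and 28.9% in KO, 29.9, 29.1 and 29.6% in WT after 5-FU and 30.7, 31.3 and 30.0% in KO after 5-FU. mt-Nd5 took 12.01, 11.43 and 11.23% in WT and 10.8% in each KO library, with 11.7, 11.6 and 11.4% in WT after 5-FU and 10.98, 11.01 and 10.79% in KO after 5-FU, so that the genotypes did not overlap within either treatment. mt-Nd3 took 0.434 to 0.509% in untreated WT and 0.450 to 0.452% in untreated KO, and 0.312 to 0.412% in WT and 0.345 to 0.391% in KO after 5-FU.

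The mean share of mt-Nd6 was higher after 5-FU and in KO, whereas that of complex I as a whole was lower. It was 1.06, 1.04 and 0.931% in WT, 1.149, 1.033 and 1.101% in KO, 1.17, 1.08 and 1.15% in WT after 5-FU and 1.42, 1.32 and 1.29% in KO after 5-FU. The KO libraries after 5-FU were above all others, with a mean 1.33 times that of WT. The stratified difference was 0.186 percentage points for 5-FU (exact permutation p = 0.005, adjusted p = 0.065) and 0.147 for genotype (p = 0.015, adjusted p = 0.106).

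**Figure D4:**
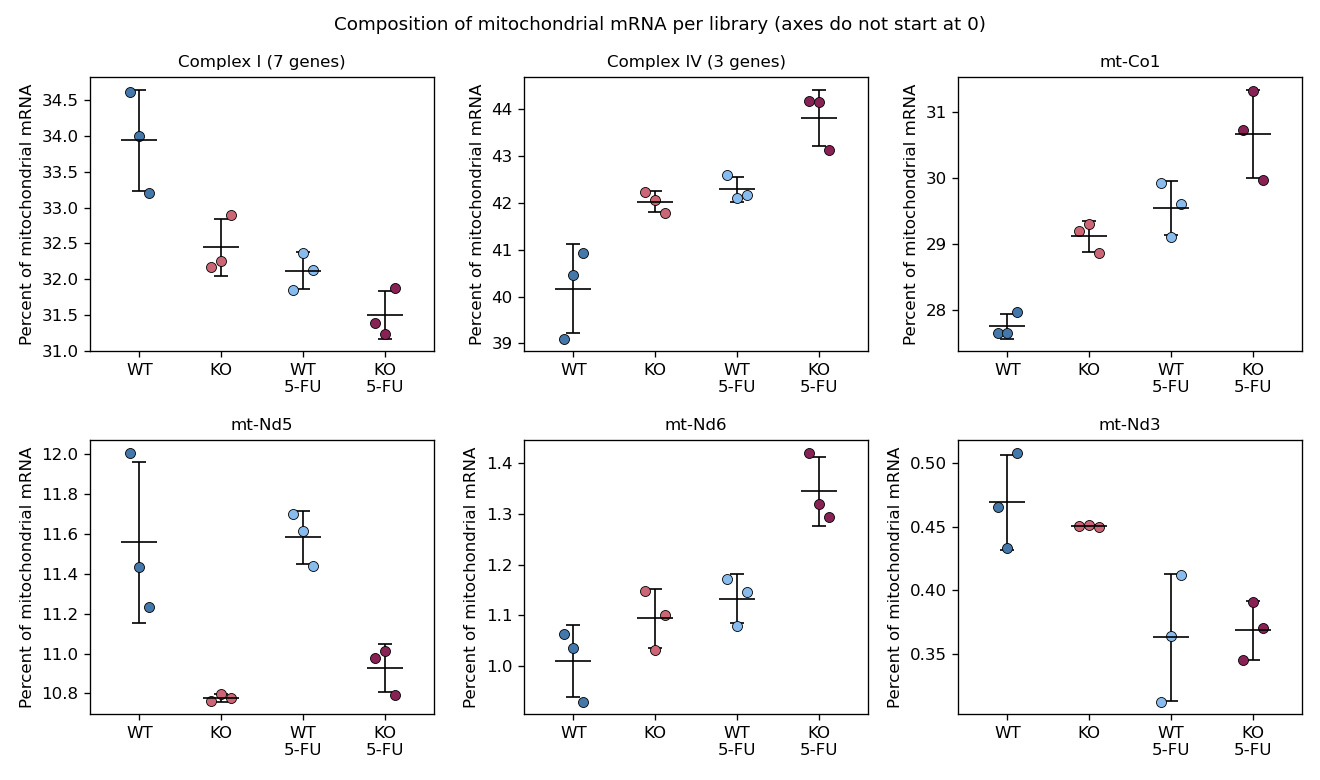
Percent of mitochondrial mRNA counts taken by the genes of complex I and of complex IV and by mt-Co1, mt-Nd5, mt-Nd6 and mt-Nd3 in each library, on axes that do not start at 0; points are libraries, long bars the mean and short bars the SD (n = 3). Complex IV and mt-Nd6 are highest in KO after 5-FU (43.1 to 44.2% and 1.29 to 1.42%), and mt-Nd5 lies at 10.76 to 11.01% in KO with or without 5-FU.

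The rRNAs of the mitochondrial ribosome were the bulk of the mitochondrial counts, 87.8 to 90.4% in each library, and moved less than the mRNAs. mt-Rnr2, the rRNA of the large subunit (MT:1094-2675), had 58256, 62184 and 61492 CPM in WT, 58222, 58346 and 59084 in KO, 58509, 58638 and 57826 in WT after 5-FU and 54089, 51536 and 54307 in KO after 5-FU. The first 3 groups overlapped, and KO after 5-FU was below all of them. mt-Rnr2 was lower in KO after 5-FU than in untreated KO (-0.15 ± 0.02, adjusted p = 0.000636) and than in WT after 5-FU (-0.13 ± 0.02, adjusted p = 0.00115). It was not called for 5-FU in WT (-0.06 ± 0.02, adjusted p = 0.147) or for KO in untreated LSKs (-0.05 ± 0.02, adjusted p = 0.257).

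mt-Rnr1, the rRNA of the small subunit (MT:70-1024), had 25588, 29220 and 30016 CPM in WT, 26622, 26569 and 26885 in KO, 25418, 26234 and 25306 in WT after 5-FU and 24740, 22481 and 24443 in KO after 5-FU. It was called for 5-FU in KO (-0.17 ± 0.03, adjusted p = 0.00463). For KO against WT after 5-FU it lay near the threshold (-0.11 ± 0.03, adjusted p = 0.0558) and was called lower with RLE scaling, with library totals without TMM, with at least 10 counts in each library, and without replicate 1 or 2 of KO after 5-FU. Both rRNA genes had an unadjusted p under 0.05 for 5-FU in WT, where edgeR and DESeq2 called 0 of 2, and both were called lower there when WT replicate 1 was left out. The ratio of mt-Rnr2 to mt-Rnr1 counts was 2.05 to 2.30 over the libraries.

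Per mRNA count, rRNA counts were higher after 5-FU and in KO. The ratio of rRNA to mRNA counts was 7.47, 7.31 and 7.21 in WT, 8.58, 8.47 and 8.49 in KO, 8.83, 8.74 and 8.66 in WT after 5-FU and 9.40, 9.36 and 9.46 in KO after 5-FU. The 4 groups were fully apart from each other. The stratified exact permutation p was 0.005 for both factors (adjusted p = 0.03 over 12 tests). How much mitochondrial rRNA passes a poly-T selection was not measured here, so this ratio is one of counts in these libraries.

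The tRNA genes were barely counted. All 22 together had 323 to 560 counts per library and 4913 over the 12 libraries. mt-Tl1, the tRNA for leucine that lies directly after mt-Rnr2 (MT:2676-2750), held 1699 of them (34.6%), and mt-Tl1, mt-Tv and mt-Tm, of which mt-Tv lies between the rRNA genes, together held 57.6%. mt-Tl1 is printed as the best counted member of the class.
mt-Tl1: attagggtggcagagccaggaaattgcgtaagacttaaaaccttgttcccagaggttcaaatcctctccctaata

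The 8 tRNA genes on the light-strand template had 421 counts (8.6%), of which mt-Tp held 231. Enough counts for a test in at least 1 comparison were found for mt-Td, mt-Tf, mt-Tg, mt-Th, mt-Tk, mt-Tl1, mt-Tm, mt-Tp, mt-Tt, mt-Tv and mt-Tw, and mt-Ti was tested only for the interaction. The other 10 never had more than 11 counts in a library. None of the tested tRNAs was called by edgeR or DESeq2. At an unadjusted p under 0.05 was mt-Tl1 alone, for 5-FU in WT and for KO in untreated LSKs. It had 6.68, 10.2 and 7.57 CPM in WT against 4.88, 4.58 and 5.51 in KO (-0.71 ± 0.22, adjusted p = 0.123).

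Summed over the class, tRNA counts were fewer in KO. They took 0.00180 to 0.00246% of counts in WT and 0.00141 to 0.00173% in KO, and 0.00160 to 0.00185% in WT after 5-FU and 0.00128 to 0.00148% in KO after 5-FU. The genotypes did not overlap within treatment (stratified exact permutation p = 0.005, adjusted p = 0.04), while for 5-FU the groups overlapped (p = 0.02 by the same exact test, adjusted p = 0.06). Single tRNA genes did not all go this way in untreated LSKs. There mt-Tv, mt-Tp and mt-Tg had log2 fold changes of 0.02, 0.05 and 0.66 in KO. Those of mt-Tl1 (-0.71), mt-Tm, mt-Tw, mt-Tk, mt-Th and mt-Tf were negative. Counts per gene do not tell reads of a cut tRNA from those of its precursor.

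Copies of mitochondrial genes in the nuclear genome can take reads from the members. Of 12 listed pseudogenes, 11 aligned to a mitochondrial mRNA gene, and 5 of them at 100% identity. Together the copies held 5.12 to 5.63% as many counts as the mRNA genes. Gm10925, identical to mt-Atp6 over its length, held 16.98 to 19.43% of the count of mt-Atp6, and as the letters are the same its reads cannot be told from those of mt-Atp6. Of 10 copies tested, 4 fell after 5-FU in WT and 3 in KO, 0 were called for KO in untreated LSKs and 1, Gm10925, was lower in KO after 5-FU, where 4.18%, 8.64%, 3.59% and 5.78% of all genes were called lower. Adding each copy to its gene left the number and the identity of the mitochondrial calls as they were in all 5 tests. Gm15772, the listed pseudogene that does not align over its length, had 715 to 803 CPM in all libraries.

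Nuclear genes for the same complexes did not follow the mitochondrial mRNAs. Of 75 nuclear subunits of complexes I to V, 0 were called after 5-FU in WT by edgeR (12 at an unadjusted p under 0.05, and 1 by DESeq2, lower), the median log2 fold change being 0.02. In untreated KO against WT LSKs 0 were called (11 at an unadjusted p under 0.05, and 3 by DESeq2, higher), with a median of 0.07. After 5-FU in KO, 8 of 75 were higher and 0 lower (median 0.16), a share at the background of 10.7%. DESeq2 called 15 of 75 higher there, where it called 2098 of 17228 genes higher, and library totals without TMM gave 12 of 75, with 1951 of 17228. In KO against WT after 5-FU, 15 of 75 were higher and 0 lower (median 0.21), against a background of 7.34%.

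The called nuclear subunits came from complexes I, III, IV and V. Between KO and WT after 5-FU, 5 of 36 were higher in complex I, led by Ndufv3 (0.97 ± 0.18, adjusted p = 0.00713) and Ndufb3 (0.79 ± 0.16, adjusted p = 0.0108). In complex III 5 of 9 were higher, with Uqcrfs1, the Rieske iron-sulfur protein, at 0.43 ± 0.08 (adjusted p = 0.00629) and Uqcr11 at 0.68 ± 0.13 (adjusted p = 0.00911). In complex IV 2 of 11 were higher, Cox4i1 (0.39 ± 0.07, adjusted p = 0.00823) and Cox6a1 (0.73 ± 0.15, adjusted p = 0.0115). In complex V 3 of 15 were higher, with the catalytic-head subunits Atp5a1 (0.31 ± 0.04, adjusted p = 0.00141) and Atp5b (0.25 ± 0.06, adjusted p = 0.0194) first. None of the 4 subunits of complex II, which has no mitochondrial gene, was called in any comparison.

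For 5-FU in KO, the called subunits were 2 of complex I (Ndufv1, 0.39, and Ndufb9, 0.32), 3 of complex III with Uqcrc1 (0.36) and Uqcrfs1 (0.26) first, Cox6a1 of complex IV (0.47), and Atp5b (0.19) and Atp5a1 (0.15) of complex V. Uqcrfs1 (0.39 ± 0.09, adjusted p = 0.0253) and Atp5a1 (0.28 ± 0.06, adjusted p = 0.01) were also the 2 of 75 subunits called for the interaction, a share near the 3.02% of all genes called higher there. Leaving out single libraries gave 4 to 9 subunits for 5-FU in KO, with 4 without KO replicate 1 or 3, and 7 to 13 for KO against WT after 5-FU, with 9 or fewer without replicate 2 or 3 of WT or replicate 1 or 2 of KO.

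The ratio of mitochondrial to nuclear subunit counts fell with both factors. Mitochondrial mRNA counts per nuclear subunit count were 2.63, 2.98 and 2.95 in WT, 2.24, 2.25 and 2.30 in KO, 2.15, 2.32 and 2.31 in WT after 5-FU and 1.68, 1.59 and 1.69 in KO after 5-FU. No groups overlapped in the 4 comparisons, and the stratified exact permutation p was 0.005 for each factor. The nuclear subunits took 0.492 to 0.496% of all counts in KO after 5-FU and 0.414 to 0.449% in the other groups.

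**Figure D5:**
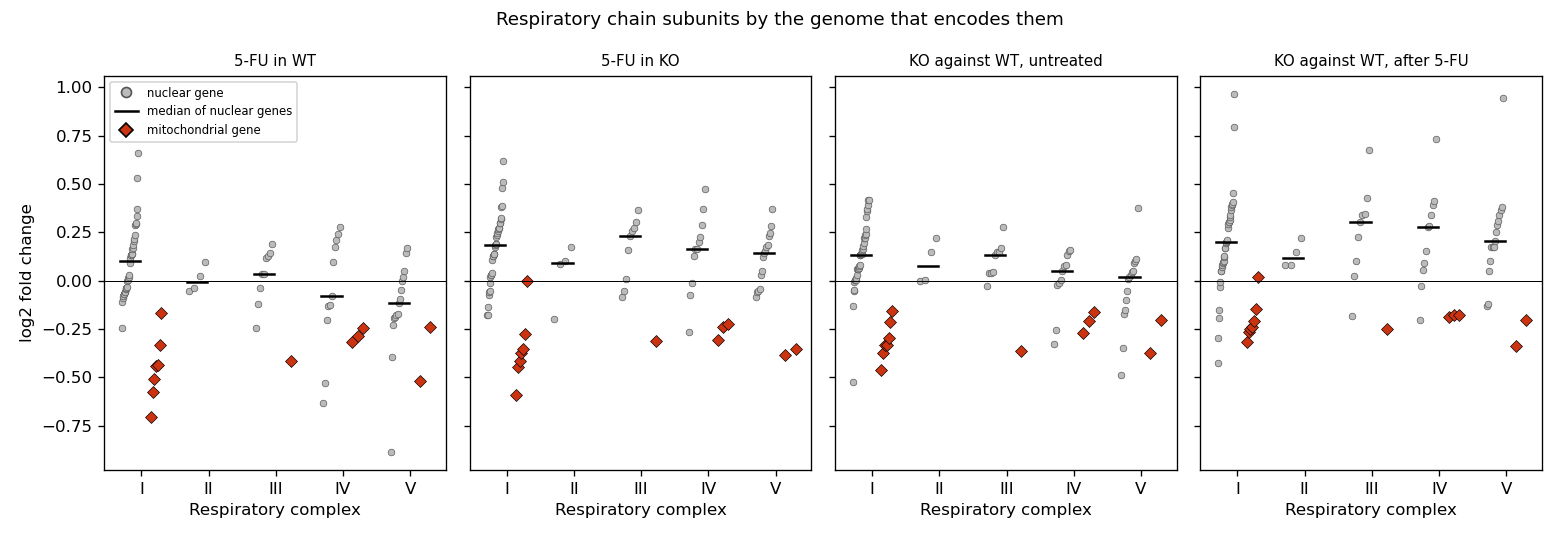
Log2 fold change of each respiratory chain and ATP synthase subunit gene by complex in the 4 comparisons, with grey circles for nuclear genes, a black bar for their median and red diamonds for mitochondrial genes. The diamonds lie below 0 except mt-Nd6 at -0.00 and 0.02, while the nuclear medians over all 75 genes are 0.02, 0.16, 0.07 and 0.21 from left to right.

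The nuclear genes that transcribe, process and translate mitochondrial RNA showed few calls. Polrmt, the mitochondrial RNA polymerase, had 23.8 to 29.6 CPM in WT, 32.9 to 36.9 in KO, 24.4 to 38.9 in WT after 5-FU and 37.2 to 41.1 in KO after 5-FU, and was not called in any comparison (0.37 ± 0.11 for untreated KO, adjusted p = 0.115). Tfam, which packs mitochondrial DNA and starts its transcription, was not called either (-0.26 ± 0.10 for KO after 5-FU, adjusted p = 0.131). The same held for Mtpap, the poly-A polymerase of mitochondria (-0.34 ± 0.11 for KO after 5-FU, adjusted p = 0.079), and for Lrpprc and Slirp, which form the complex that stabilises mitochondrial mRNA (0.15 ± 0.07, adjusted p = 0.224, and 0.23 ± 0.27, adjusted p = 0.65, for KO after 5-FU).

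Among 18 genes of mitochondrial transcription and replication, Polg, the DNA polymerase of mitochondria, was higher in KO after 5-FU than in the other groups. It had 43.3 to 50.9 CPM in WT, 41.2 to 47.8 in KO, 46.1 to 47.8 in WT after 5-FU and 67.6 to 75.2 in KO after 5-FU. Its log2 fold change was 0.62 ± 0.09 for 5-FU in KO (adjusted p = 0.00136), 0.58 ± 0.08 for KO after 5-FU (adjusted p = 0.00198) and 0.65 ± 0.12 for the interaction (adjusted p = 0.00857). Mterf1a, named for transcription termination, was called lower for 5-FU in KO (-1.13 ± 0.30, adjusted p = 0.0298). With 1 of 18 called in each direction for 5-FU in KO, the list lies below the shares of all genes called there (10.7% higher and 8.64% lower), and the lower call was lost with a replicate block. Polg was 1 of 18 called higher for KO against WT after 5-FU and for the interaction, against 7.34% and 3.02% of all genes. No other gene of this list was called.

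Of 23 genes for processing, polyadenylation and decay, Rexo2, a nuclease for short RNAs, rose after 5-FU in KO (0.50 ± 0.09, adjusted p = 0.00528) and was higher in KO than in WT after 5-FU (0.50 ± 0.11, adjusted p = 0.0198). Trmt10c, a subunit of mitochondrial RNase P, and Endog, a mitochondrial endonuclease, fell after 5-FU in KO (-0.37 ± 0.10, adjusted p = 0.0284, and -0.78 ± 0.22, adjusted p = 0.0394). These 2 lower calls and 1 higher call of 23 lie near or below the shares of all genes called for 5-FU in KO (8.64% lower and 10.7% higher), and both lower calls were lost with a replicate block. For KO against WT after 5-FU, 1 of 23 called higher is also below the 7.34% of all genes. Of 19 genes that modify mitochondrial tRNA and rRNA, Gtpbp3 alone was called by edgeR, in KO after 5-FU against WT (0.55 ± 0.15, adjusted p = 0.0451), which as 1 of 19 is below the 7.34% of all genes called higher. In the other 3 comparisons, with 5-FU in WT, 5-FU in KO and untreated KO in this order, edgeR called 0 (0, 4 and 3 at an unadjusted p under 0.05) and DESeq2 called 0, 1 and 1 higher. Of 15 translation factors none was called by edgeR, with 1, 1, 3 and 2 at an unadjusted p under 0.05 in the 4 comparisons and 1, 0, 1 and 1 called by DESeq2. Of 78 mitochondrial ribosomal protein genes, 8 rose after 5-FU in KO and 5 were higher in KO than in WT after 5-FU, shares at and below the backgrounds of 10.7% and 7.34%, with 0 in the other comparisons (4 and 13 at an unadjusted p under 0.05, and 1 and 4 by DESeq2), and leaving out any library gave 1 to 3 in both cases.

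Of 9 regulators of mitochondrial biogenesis tested for 5-FU, Yy1 and Gabpb1, factors that act on nuclear genes for mitochondrial proteins, fell after 5-FU in both genotypes, where 4.18% of all genes in WT and 8.64% in KO were called lower. Yy1 had -0.28 in each (adjusted p = 0.0172 in WT and 0.00253 in KO), and Gabpb1 had -0.38 in WT (adjusted p = 0.0226) and -0.42 in KO (adjusted p = 0.0165). With a replicate block, 1 regulator was called lower in WT and 2 in KO. No regulator was called between genotypes by edgeR, with 2 and 3 at an unadjusted p under 0.05 and 1 and 0 by DESeq2.

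Markers of other blood cells differed between the groups, and those of neutrophils and erythroid cells stood highest in KO after 5-FU. The 8 neutrophil markers summed to 2285 to 2367 CPM in WT, 3154 to 3287 in KO, 2244 to 2432 in WT after 5-FU and 4786 to 5138 in KO after 5-FU, and the number of them at 0 counts went from 4 to 6 in WT to 0 in KO after 5-FU. Mpo, which early myeloid progenitors also express, made up nearly all of this sum outside KO after 5-FU, where Ngp (240 to 263 CPM), S100a9 (310 to 328) and Ltf (143 to 159) were also present, against at most 2.54, 1.73 and 1.12 CPM in the other groups. The 8 erythroid markers summed to 99.2 to 126 CPM, 137 to 151, 156 to 161 and 534 to 554 in this order of groups. Each of these 16 markers was higher in all KO libraries after 5-FU than in any other library, but several reached the count minimum only through this group, so no count of calls is given for them there. Of the LSK markers, 8 of 10 were lower in KO than in WT after 5-FU, against 5.78% of all genes.

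In untreated KO LSKs, 2 of 4 tested neutrophil markers and 1 of 8 erythroid markers were higher, as were 2 of 5 monocyte and 1 of 5 megakaryocyte markers, while 3 of 10 LSK markers and 3 of 5 B cell markers were lower than in WT, against 1.64% of all genes called higher and 3.59% lower. In WT after 5-FU, 1 of 5 tested neutrophil and 2 of 7 tested erythroid markers were higher than in untreated WT, as were 5 of 5 tested B cell markers and 4 of 5 tested megakaryocyte markers, against 3.77% of all genes. Of 10 LSK markers, 2 were higher and 2 lower for 5-FU in WT (3.77% and 4.18% of all genes). DESeq2 called 6 higher and 2 lower there (1003 and 1059 of 17002 genes). For 5-FU in KO, 3 LSK markers were higher and 2 lower (10.7% and 8.64% of all genes). The B cell markers summed to 57.2 to 65.8 CPM in WT, 33.8 to 41.2 in KO, 255 to 259 in WT after 5-FU and 263 to 292 in KO after 5-FU. The megakaryocyte markers summed to 43.6 to 50.4, 74.3 to 79.6, 177 to 199 and 249 to 262 CPM in the same order. Monocyte markers summed to 154 to 184 CPM in WT, 192 to 204 in KO, 226 to 234 in WT after 5-FU and 232 to 240 in KO after 5-FU. For 5-FU in KO, 3 of 6 were called higher and 1 lower, against 10.7% and 8.64% of all genes. T cell markers summed to 1.44 to 9.64 CPM over all libraries. The part of these cells in the mitochondrial differences was not tested.

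RNAs of the nucleus that carry no poly-A tail also differed. Of 11 that were tested, 7 were higher in untreated KO than in WT, among them Rn7s1 and Rn7s2, the RNAs of the signal recognition particle (0.60 ± 0.03 and 0.59 ± 0.03), where 1.64% of all genes were called higher. Rpph1, the RNA of nuclear RNase P, had 3769 to 4715 CPM in WT, 7541 to 8947 in KO, 11004 to 13243 in WT after 5-FU and 9652 to 11999 in KO after 5-FU. Rmrp, the RNA of RNase MRP, had 513 to 612, 808 to 919, 777 to 839 and 679 to 837 CPM in the same order. Rprl3 was at 304 to 717 CPM in the other 3 groups and at 0 to 0.0776 CPM in KO after 5-FU. Rn7sk was at 4236 to 6050 CPM, Rn7s6 at 19.1 to 34.3, Terc at 9.78 to 13.9 and Vaultrc5 at 9.56 to 19.5, and the rRNA-linked Gm26917 and Gm42418 at 60589 to 84594 and 8239 to 12931 CPM. For 5-FU, 5 of the 11 rose and 1 fell in WT (3.77% and 4.18% of all genes), and 2 rose and 5 fell in KO (10.7% and 8.64% of all genes). Between KO and WT after 5-FU, 2 were higher and 2 lower (7.34% and 5.78% of all genes), and for the interaction 1 was higher and 7 lower (3.02% and 1.99% of all genes).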

How the data were processed

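LSK RNA was sequenced as paired-end reads from stranded poly-A libraries, and the submitters' processing notes name CASAVA 1.8, HISAT2, StringTie and edgeR with GRCm38. The authors deposited 1 table with a read count and an FPKM per gene and library. The deposited counts are raw, and the deposited FPKM values are scaled by gene length and depth. Count columns are named WT, KO, FWT and FKO with a number, and F was read as 5-FU treated. 0 columns of values were left without a sample. The deposited totals of 22118154 to 28275079 counts mean that 3 counts equal 0.106 to 0.136 CPM.

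Members, gene lists and tests were chosen with earlier results of these data known. Counts were filtered with filterByExpr (minimum count 10), scaled by TMM and tested with edgeR 4.0.16 (quasi-likelihood) in R 4.3.3, with Benjamini-Hochberg adjustment over all genes. CPM values use TMM library sizes. SE is the absolute log2 fold change over the square root of F. Shares were tested by exact permutation, over 12 libraries within strata, adjusted within each family of tests, with Python 3.11.15. The code was tested on simulated data. All mRNA and rRNA genes are named, tRNA genes where tested, the 2 lowest p-values among called members of each nuclear list per comparison, Polrmt, Tfam, Mtpap, Lrpprc and Slirp always, and small RNAs from 10 CPM. Alternatives were RLE and unscaled totals, TMM on nuclear genes, DESeq2 1.42.0, other count filters, 1 fit of all libraries, a replicate block and each library left out. TMM on nuclear protein-coding genes, added nuclear copies, the ratio to nuclear protein-coding counts and the narrower family of composition tests were chosen after seeing the data. Same-numbered libraries of the groups compared did not deviate together (correlations -0.057 to 0.025), so the numbers were taken as names. Sequences were read from GENCODE M21 transcripts.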

Additional observations from a re-analysis of the deposited data

How the results depend on the processing

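All called mitochondrial genes were lower under all settings run, and no named value changed sign past its threshold. For 5-FU in KO the same 14 genes were called under all settings. For 5-FU in WT 9 to 12 genes were called outside the fit without WT replicate 1, which called 14. For KO against WT in untreated LSKs 8 genes were called, 7 to 11 under other settings, and leaving out 1 library gave 3 to 12. After 5-FU it was 9, 7 to 12 and 7 to 9. For the interaction the count of 0 became 2 with library totals without TMM (mt-Atp6 and mt-Rnr2), 1 with at least 10 counts in each library (mt-Atp6) and 0 to 1 with a library left out. Composition gave 0 tests of single genes past the threshold, 11 (8 for 5-FU and 3 for genotype, with mt-Co1 and mt-Nd6 in both) when only the 26 tests on 12 libraries were adjusted together, and 0 to 0 with a library left out. The mRNA share differences with 1 library left out were -0.261 to -0.193 and -0.184 to -0.160 for 5-FU in WT and KO, and -0.245 to -0.177 and -0.169 to -0.145 for KO without and with 5-FU.

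A replicate block gave 11, 14, 7, 7 and 0 mitochondrial calls, and over all genes tested 465 higher and 491 lower in place of 641 and 711 for 5-FU in WT, and 116 and 338 in place of 280 and 612 for untreated KO. DESeq2 called 1003 and 1059 for 5-FU in WT, 528 and 899 for untreated KO and 869 and 666 in place of 564 and 372 for the interaction. Library totals without TMM turned the split for 5-FU in WT to 765 higher and 549 lower, and for the interaction to 428 and 420. Since the numbers were taken as names, the block served as an alternative fit only, and calls lost under it are given as such. The cause of the changes was not tested. Depth limits the tRNAs most, as each had at most 230 counts in a library.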
